A study of Homo sapiens with 4 samples.

Results

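The circles described here are the circular RNAs that the deposited count table types as "intron", a type that the table does not define. They were taken by that type, leaving out the mitochondrial genome and circles with 0 counts in all 4 libraries. This gave 52627 of the 190152 circles with a count, and 110206 of the remaining circles were of the exon type. Intron-type circles held 219034 counts, 12.9% of all counts.

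Circular RNA was measured by Induro-mediated nanopore sequencing in the basal-like breast cancer line MDA-MB-468, an established line of human cells. All 4 libraries came from a radioresistant derivative that had received 50 Gy in total. Control libraries carried a control hairpin (shCtrl, genotype WT in the labels), and knockdown libraries carried a stable hairpin against HNRNPL (shHNRNPL, genotype HNRNPL knockdown), each with 2 biological replicates per the study's design text. The comparison asks which circular RNAs depend on HNRNPL in resistant cells. No unirradiated parental cells were analysed here, so every value applies to the resistant derivative, and 1 hairpin stands for the knockdown. Nothing in the labels says how separate the replicate cultures were, so p-values measure only the spread between these libraries.

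A circular RNA forms when a downstream splice donor joins an upstream splice acceptor. Circles with intron sequence can arise from retained introns between circularised exons, from intron lariats that escape debranching, or from splice sites within introns that are not annotated as exons. HNRNPL is a nuclear RNA-binding protein that binds CA-rich sequences and regulates exon choice. HNRNPL itself had 0 circles of any type in the table, so the knockdown could not be checked in these data.

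Short sequences at the junction are shown first because the table lists, for each circle with a strand, an equivalent sequence, taken here as the bases that could be placed on either side of the back splice. Of 51702 intron-type circles with a strand, 44.7% had no such repeat, against 27.9% of 110206 exon-type circles. Repeats of at least 12 nt were rare, with 51 circles (0.0986%) against 14 exon-type circles (0.0127%). The 9 letters GATTACAGG, a stretch found in Alu elements, stood in 13 of the 51 long repeats and in 1 of the 14 exon-type repeats, and their reverse complement stood in 0 of the 51. The motif CACACA stood in 0 of the 109 intron-type repeats of at least 8 nt. The cut at 12 nt and the motif were chosen after the sequences were seen, so no test is given. The repeats below, printed as the deposited table writes them, are 3 with GATTACAGG and 2 with the letters AGGT, both in capitals. AGGT is what an AG acceptor joined to a GT donor spells. Whether acceptor and donor meet at these letters was not checked.
ZNF131: gtgctggGATTACAGG
PWWP2A: ctgaGATTACAGG
GOLPH3: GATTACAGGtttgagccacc
TEAD1: atgtgccAGGTactgt
ZNF573: cttcAGGTcaattaaaatagagtt

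The ZNF131 circle (chr5:43136750-43170897, plus strand, 1433 nt in 3 blocks) was the abundant one of these. It had 29 and 74 counts in control replicates 1 and 2 and 63 and 100 counts in knockdown replicates 1 and 2. The PWWP2A circle (chr5:160067921-160116832, minus strand) had 2, 1, 1 and 2 counts in the same order, and the GOLPH3 circle (chr5:32128398-32171687, minus strand) had 1 count in each library. The TEAD1 circle (chr11:12778047-12800388, plus strand) had 3 counts, all in control replicate 1. The ZNF573 circle (chr19:37755562-37759325, minus strand) had 0 counts in control replicate 1 and 1 in each other library. Coordinates are those of the deposited table, on GRCh38.p14 per the submitters' processing notes.

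Introns also hold microRNA genes, and 39 intron-type circles contained at least 1 of 33 microRNA hairpins of RefSeq (GRCh38.p14) inside a block on the same strand. A mature sequence is shown for each of 3 hairpins with the most counts in such circles (MIR548AR tied with the last of them), with the seed (bases 2 to 8) in capitals.
hsa-miR-186-3p: gCCCAAAGgugaauuuuuuggg
hsa-miR-3618: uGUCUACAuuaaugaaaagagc
hsa-miR-7856-5p: uUUUAAGGacacugagggauc
No seed was shared among these 3. MIR186, in an intron of ZRANB2, lay in 5 circles with 13, 0, 3 and 1 counts in control replicates 1 and 2 and knockdown replicates 1 and 2. MIR3618, which lies in the host DGCR8, a component of the microRNA processor, lay in 1 circle with 13 counts, all in control replicate 1. MIR7856, in ODF2L, lay in 3 circles with 4, 2, 1 and 4 counts in the same order. At these counts no difference between the groups was detectable.

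Control replicate 1 stood apart from the other 3 libraries in its intron-type circles. It also stood apart in exon-type circles, which took 70.5% of its counts. Their share was 84.9% in control replicate 2 and 85.7% and 85.5% in the knockdowns. Total counts were 472428 and 556578 in the controls against 282737 and 390547 in the knockdowns, and a count of 0 allows up to 3 counts in a library, which is 0.635, 0.539, 1.06 and 0.768 per 100000. Copies were amplified with phi29 and carry no molecular identifiers, so this floor covers counting error only. Of 9 epithelial marker genes, 6 had circles of any type, with 141 and 90.6 summed counts per 100000 in the controls against 60.8 and 59.9 in the knockdowns. KRT8, KRT18 and KRT19 were at 0, and whether this marker level bears on any result was not tested. All markers of leukocytes (6 genes), fibroblasts (5 genes) and endothelium (4 genes) were at 0.

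Intron-type circles took 19.7% and 10.6% of the counts in control replicates 1 and 2, and 9.93% and 10.0% in the knockdowns. The control mean was 15.1% ± 6.41 (SD, n = 2) and the knockdown mean 9.97% ± 0.0481 (SD, n = 2). The groups did not overlap, but control replicate 2 lay close to both knockdowns. An exact two-sided permutation test gave p = 0.33, the smallest that 2 libraries against 2 can give. At an equal depth of 282737 counts, 23640 and 11690 intron-type circles were expected in the controls against 12285 and 12654 in the knockdowns, by the hypergeometric formula. The groups overlapped (exact permutation p = 1), and without control replicate 1 the difference turned to 780 more circles in the knockdown.

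The table gives each circle as 1 or more genomic blocks, and this divides the intron-type circles into 2 kinds. Circles of 1 block, which run through the genome without a gap, numbered 35553 (67.6%). The other 17074 had more than 1 block, with a median of 6 and up to 46. In control replicate 1, circles of 1 block held 13991 counts per 100000, above the 4805 of control replicate 2 and the 5028 and 5161 of the knockdowns. Among intron-type circles, control replicate 1 was therefore set apart by those of 1 block, while the other 3 libraries lay within a narrow range. Circles of more than 1 block held 5676 and 5791 counts per 100000 in the controls against 4906 and 4841 in the knockdowns. Their mean was 5734 ± 81.9 (SD, n = 2) in the controls and 4873 ± 46.0 (SD, n = 2) in the knockdown, a ratio of 0.85, or 0.841 against control replicate 2 alone. The groups did not overlap for circles of more than 1 block. This split was made after the counts had been seen and carries no test.

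**Figure D1:**
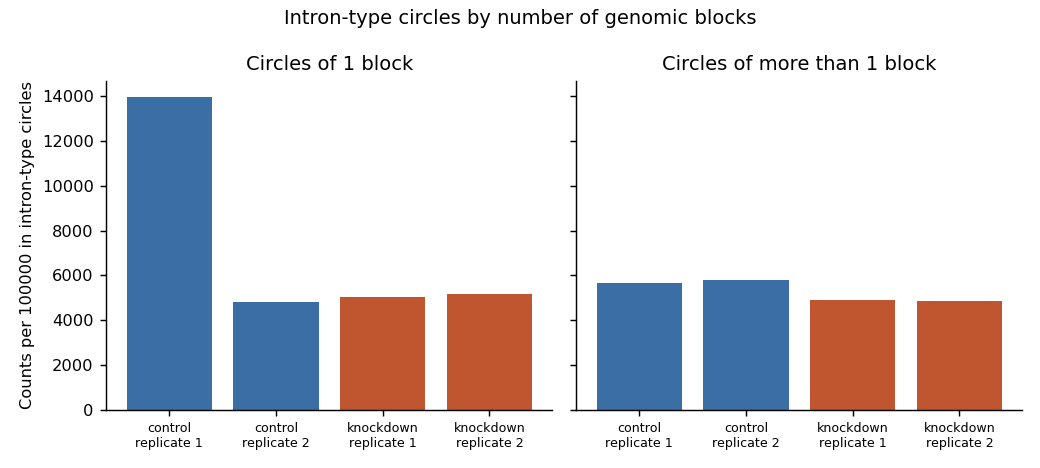
Counts per 100000 (vertical axis, from 0) held by intron-type circles of 1 genomic block (left) and of more than 1 block (right), as 1 bar for each library, with controls in blue and knockdowns in orange. The bar of control replicate 1 at 13991 stands above the other 3 on the left, and both knockdown bars on the right (4906 and 4841) lie below both control bars.

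Intron-type circles of more than 1 block had many ends and blocks in common with exon-type circles. Of them, 59.4% shared 1 end with an exon-type circle, against 1.90% of circles of 1 block, and 0 intron-type circles shared both. How the types were assigned is not defined, so this 0 is not read as a result. Of 91051 inner blocks, 90.6% were also blocks of an exon-type circle. Counted over all intron-type circles, 20.6% shared an end with an exon-type circle.

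Structure and host were compared with those of exon-type circles within each library. Weighted by counts, circles of more than 1 block made up 28.9% and 54.7% of intron-type counts in the controls against 49.4% and 48.4% in the knockdowns, against 83.8% to 88.3% of exon-type counts. The canonical acceptor and donor pair AG-GT flanked 77.7%, 87.8%, 85.6% and 85.1% of intron-type counts in the same order, against 93.1% to 97.2% of exon-type counts. The next most common pair, AG-AT, held 8.63% of intron-type counts in control replicate 1 and 4.55% to 4.74% in the other 3 libraries. Long non-coding RNA genes hosted 8.85% and 11.1% of intron-type counts in the controls against 15.7% and 16.5% in the knockdowns, against 0.515% to 0.847% of exon-type counts. The count-weighted median length was 1753 and 1497 nt in the controls against 1732 and 1648 nt in the knockdowns, against 1250 to 1321 nt for exon-type circles. A junction repeat of at least 1 nt was carried by 54.4%, 69.3%, 67.4% and 67.4% of intron-type counts, against 79.4% to 84.7%. Each of these differences had 1 sign in 4 of 4 libraries, where an exact sign-flip test over the 4 libraries gives p = 0.125 at the least and 0.143 after Benjamini-Hochberg adjustment over the 8 features compared. An asterisk follows the splice motif for 95.4% to 97.0% of intron-type counts and 12.7% to 26.1% of exon-type counts, and the table does not explain this mark.

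Between the groups, the AG-GT share and the median length overlapped (exact permutation p = 1 for both). Without control replicate 1 the difference in AG-GT share, knockdown minus control, was -2.46 percentage points. The 10 most abundant intron-type circles held 2.83% and 6.86% of intron-type counts in the controls against 10.8% and 10.98% in the knockdowns. The 10 most abundant exon-type circles had the same order of groups, with 5.76% and 6.17% of exon-type counts against 8.35% and 7.62%. A single intron-type circle, of RAP2C-AS1, had 535 and 1499 of the 92910 and 58977 intron-type counts in the controls. In the knockdowns it had 1457 and 2160 of 28086 and 39061. For the intron-type share, both knockdowns lay above both controls (exact permutation p = 0.33, the smallest possible).

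Recurrence between libraries was compared at like counts. Of all intron-type circles, 73.5% were seen in 1 library and 2.72% (1431) in all 4, against 45.8% and 13.8% of exon-type circles. Among circles with 10 to 19 counts, 49.3% of 1988 intron-type circles were seen in 1 library only, against 7.57% of 8759 exon-type circles. Those intron-type circles were in control replicate 1 in 785 cases and in control replicate 2 in 196, with 0 in either knockdown. The exon-type circles of that bin seen in 1 library were likewise mostly in the controls, with 420, 240, 0 and 3 in control replicates 1 and 2 and knockdown replicates 1 and 2. Among circles with 20 to 39 counts, 18.8% of 494 intron-type circles were seen in 1 library only, against 1.43% of 4466. At 40 or more counts the shares were 2.13% of 282 and 0.0877% of 4562.

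**Figure D2:**
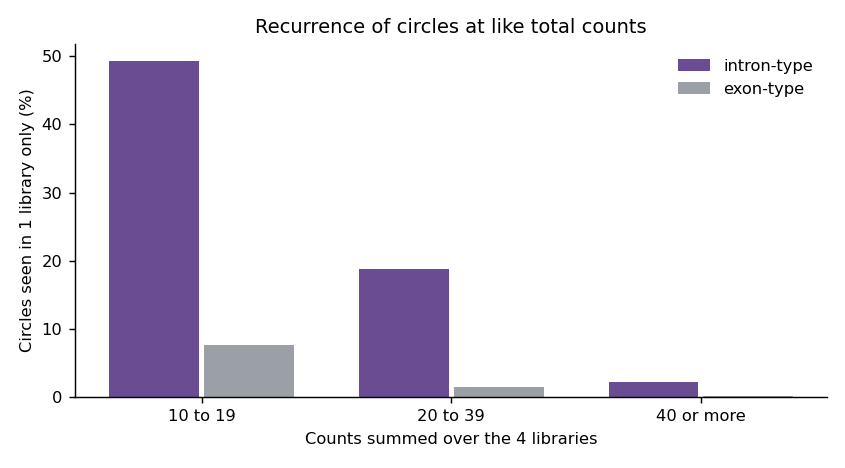
Share of circles seen in 1 library only (vertical axis, percent) by counts summed over the 4 libraries (horizontal axis), for intron-type (purple) and exon-type circles (grey). The intron-type bar stands above the exon-type bar in each bin, at 49.3% against 7.57% for 10 to 19 counts.

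Members ranged from 82 to 12942 nt in length, with a median of 1561 nt and quartiles of 1018 and 2423 nt, against a median of 1248 nt for exon-type circles. Most stood alone at their ends: of 47354 upstream ends, 94.6% were used by 1 intron-type circle, and 208 by 5 or more. The circles lay at a median of 46.6% of the way through the gene, against 61.1% for exon-type circles (84.2% and 98.4% of circles with 1 named gene matched to the gene table).

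Circles naming 1 gene fell on 8650 hosts, of which 2986 had 1 intron-type circle and 1353 had 10 or more. Of the hosts, 3170 had 0 counts in exon-type circles, including 1386 of the 1631 long non-coding RNA hosts. Across 7588 hosts with a known length, longer genes had more intron-type circles (Spearman's rho 0.49, Pearson's r 0.47 on log values), a description across genes that share the 4 libraries. LINC01208, a long non-coding RNA of 31385 nt, had the most circles (117), followed by EFNA5 (103) and VPS13B (100).

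The most abundant intron-type circle came from RAP2C-AS1, a long non-coding RNA antisense to the small GTPase gene RAP2C. It ran from chrX:132281095-132283032 in 1 block of 1938 nt, with 113 and 269 counts per 100000 in the controls against 515 and 553 in the knockdowns. Both knockdowns lay above both controls, and the controls differed from each other by more than the knockdowns did. The fitted log2 fold change of 1.51 ± 0.39 (SE) had an adjusted p of 0.176 by edgeR's quasi-likelihood test over all circles. RAP2C-AS1 had 0 exon-type counts. Other long non-coding hosts without exon-type counts, ENSG00000286912 and ENSG00000286480, gave circles with the same order of groups. Their values were 21.4, 49.6, 90.2 and 83.7 per 100000 for the first and 5.72, 30.4, 73.6 and 85.5 for the second, in the order control replicates 1 and 2, knockdown replicates 1 and 2 (adjusted p 0.224 and 0.218 by edgeR).

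TDRP, named for its role in testis development, gave a 2682 nt circle of 1 block with 122 and 96.5 counts per 100000 in the controls against 72.9 and 63.2 in the knockdowns. The knockdowns lay below the controls (log2 fold change -0.78 ± 0.39, adjusted p 0.43 by edgeR). CHD9, a chromatin remodeller, gave a circle with 45.7 and 71.9 per 100000 in the controls against 82.4 and 91.9 in the knockdowns (adjusted p 0.43 by edgeR). The circles of KANSL1L, of the chromatin regulator ANKRD11 and of NUP205, a scaffold protein of the nuclear pore, overlapped between the groups or lay close together. KANSL1L had 53.6, 33.2, 59.8 and 61.7 per 100000, ANKRD11 44.7, 33.4, 38.9 and 32.3, and NUP205 50.0, 28.4, 38.6 and 31.5, in the same order. Leaving out control replicate 1 turned the sign for ANKRD11 and NUP205, and leaving out control replicate 2 turned it for KANSL1L. ANKRD11 overlaps other named genes there, so its reads cannot be assigned to 1 gene.

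CDC16 encodes a subunit of the anaphase-promoting complex, and 14 intron-type circles started at 1 upstream end that no exon-type circle used, at position 114235887 of chromosome 13. Summed, they had 121 and 144 counts per 100000 in the controls against 65.4 and 60.7 in the knockdowns, with means of 133 and 63.1. Both knockdowns were below both controls in 6 of the 9 circles with at least 10 counts, against 22.9% of all circles at that depth. The main circle (chr13:114235887-114272665, plus strand, 2205 nt in 19 blocks) had 385 and 532 counts in the controls against 137 and 176 in the knockdowns, with a log2 fold change of -0.97 ± 0.32 and an adjusted p of 0.269 by edgeR. The circle of 2103 nt had 97, 132, 22 and 32 counts, and that of 1971 nt had 31, 40, 15 and 14 counts. The 12-block circle of 1299 nt from the same end had 30 and 26 counts in the controls against 1 and 2 in the knockdowns (log2 fold change -3.63 ± 0.71, adjusted p 0.113 by edgeR). These circles share their upstream end and are not independent of each other.

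LINC01208 had 2 upstream ends with many circles, which together held 31 of its 117 circles. Those from position 176721985 of chromosome 3 had 55.2 and 55.2 counts per 100000 in the controls against 36.1 and 33.3 in the knockdowns. Those from position 176745552 had 32.4 and 39.5 in the controls against 64.7 and 70.7 in the knockdowns. The groups did not overlap for either sum, and the order of the groups was opposite. Summed over all LINC01208 circles the values were 112, 118, 122 and 123 per 100000. The 1509 nt circle of 1 block from the first position (chr3:176720477-176721985) had 187, 194, 73 and 83 counts. The 3063 nt circle from the second position, with the same downstream end, (chr3:176720477-176745552) had 86, 106, 137 and 195 counts, with a log2 fold change of 1.35 ± 0.35 and an adjusted p of 0.179 by edgeR. Another circle, of 1554 nt and also from the second position (chr3:176743999-176745552), had 27, 51, 8 and 16 counts and so lay lower in the knockdowns, opposite to the sum for that position. CRIM1, a transmembrane protein that binds bone morphogenetic proteins, had 10 circles from 1 upstream end, with 63.3 and 64.1 per 100000 in the controls against 32.2 and 45.6 in the knockdowns. PATJ, a scaffold of the Crumbs polarity complex, had 10 circles from 1 end with 10.8 and 10.4 in the controls against 18.0 and 16.6 in the knockdowns. LRPPRC, a regulator of mitochondrial messenger RNA, had 12 with 6.35 and 15.6 in the controls against 1.42 and 2.82 in the knockdowns. These ends were picked after values had been seen and not by number of circles alone, so their sums carry no test. The end with the most circles, 18 at PARGP1, had 27.73 and 36.29 in the controls against 24.40 and 27.65 in the knockdowns. Some other ends overlapped between the groups. ABCD3 had 14 circles from 1 end with 2.54, 9.88, 3.54 and 3.84, and LRIG2 had 13 with 5.08, 8.80, 10.3 and 7.17, in the same order.

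In the test of all 21576 circles with at least 10 counts (edgeR's quasi-likelihood test, TMM scaling, Benjamini-Hochberg adjustment), 2764 intron-type circles were tested and 0 passed an adjusted p of 0.05. The share of all tested circles that passed was 0% in both directions, and DESeq2 called 67 intron-type circles (2.42%; 58 higher and 9 lower in the knockdown) against 4.88% of all circles. At an unadjusted p under 0.05 by edgeR, 156 intron-type circles were higher and 83 lower in the knockdown, together 8.65% of those tested. Of all tested circles, 2032 were higher (9.42%) and 863 lower (4.00%), together 13.4%. Of the tested intron-type circles, 1149 had 0 counts in both knockdowns and 79 had 0 in both controls. A filter on summed counts lets circles pass through 1 group alone, and the controls held more counts in total. Whether this bears on the 2 numbers was not tested. The like numbers over all tested circles were not taken, so these 2 numbers carry no comparison with the background. Leaving out control replicate 1 brought the number passing to 571 of 1469 (38.9%), against 28.1% of all circles, and leaving out control replicate 2 to 1233 of 1900 (64.9%), against 43.2%. Leaving out either knockdown gave 0. Among circles with at least 40 counts, 79 of 282 intron-type circles (28.0%) had both knockdowns above both controls and 93 (33.0%) had both below, against 29.7% and 28.9% of all circles at that depth. These shares were close to the background.

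The 3 higher circles with the smallest p-values came from CHMP3, LYPLAL1 and PARD3B, each with an adjusted p of 0.0761 by edgeR. The CHMP3 circle (chr2:86539790-86542312, minus strand, 1636 nt), named also for the readthrough gene RNF103-CHMP3, had 1 and 2 counts in the controls against 53 and 48 in the knockdowns. CHMP3 is a subunit of the ESCRT-III membrane-cutting machinery. Its log2 fold change was 5.58 ± 0.57. The PARD3B circle (chr2:204558024-204559867, plus strand, 1844 nt in 1 block) had 4 and 9 counts in the controls against 59 and 76 in the knockdowns, a log2 fold change of 3.98 ± 0.44. PARD3B is a cell polarity protein. The LYPLAL1 circle (chr1:219193082-219241308, plus strand, 852 nt in 5 blocks) had 6 and 8 counts in the controls against 70 and 115 in the knockdowns, a log2 fold change of 4.27 ± 0.44. In each of these 3 circles the groups lay far apart, and the log2 fold change stayed above 3.7 under each alternative. The adjusted p passed under 7 of 13 alternatives, among them leaving out either control and DESeq2. It was 0.746 without knockdown replicate 1, 0.729 without knockdown replicate 2 and 0.118 with library-size scaling, by edgeR.

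The 3 lower circles with the smallest p-values were the 1299 nt CDC16 circle given above and circles of SH3RF3 and ARHGAP32. SH3RF3, an E3 ubiquitin ligase with SH3 domains, had 29 and 41 counts in the controls against 3 and 6 in the knockdowns (chr2:109181411-109182644, log2 fold change -2.36 ± 0.52, adjusted p 0.135 by edgeR). ARHGAP32 had 49 and 51 counts in the controls against 2 and 8 in the knockdowns (chr11:129257957-129260389, log2 fold change -2.79 ± 0.62, adjusted p 0.139 by edgeR). Both were circles of 1 block, and in both the groups did not overlap.

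**Figure D3:**
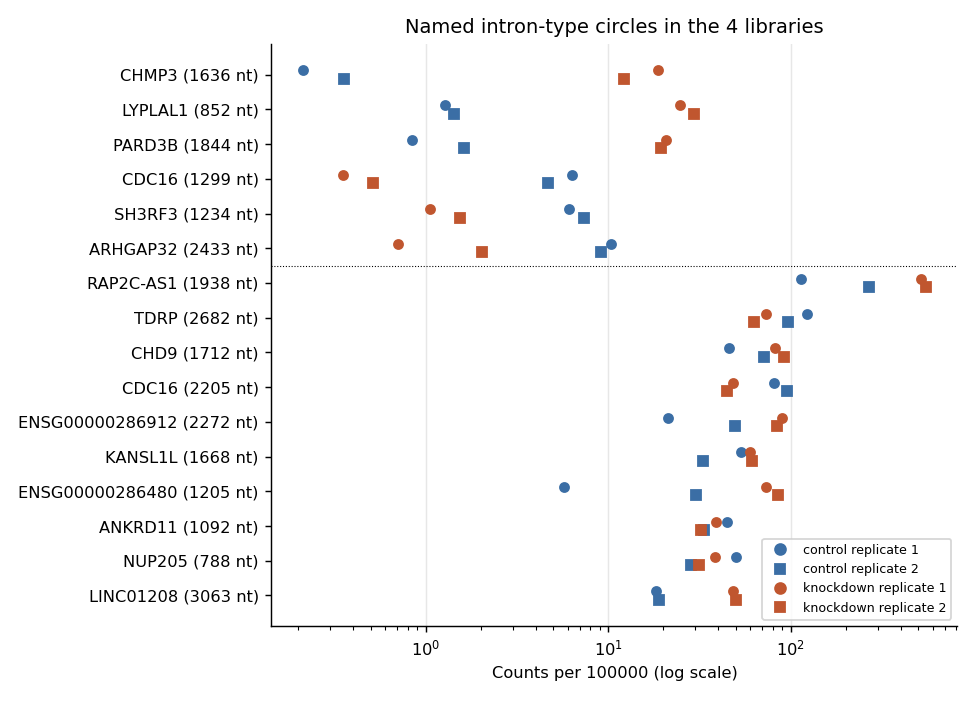
Counts per 100000 (horizontal axis, log scale) of 16 intron-type circles in control (blue) and knockdown (orange) libraries, with replicate 1 as circles and replicate 2 as squares. The upper 6, above the dotted line, have the smallest p-values in each direction and the lower 10 are the most abundant; CHMP3 runs from 0.212 and 0.359 in the controls to 18.7 and 12.3 in the knockdowns.

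Counts were next summed over the intron-type circles of each host, since most single circles had few counts. Of 10046 sums by host and circle type, 12 passed an adjusted p of 0.05 by edgeR, all higher in the knockdown (0.119%), and 0 were lower. Of 3790 intron-type sums, 1 passed. At an unadjusted p under 0.05, 100 intron-type sums were higher and 241 lower, against 5.99% and 5.57% of all sums. With library-size scaling in place of TMM the split was 56 higher and 365 lower, together 11.1% of intron-type sums. Over all sums, 437 were higher (4.35%) and 983 lower (9.78%), together 14.1%. The median over all sums of the log2 fold change moved from -0.36 to -0.79.

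The sum that passed was LYPLAL1, a lysophospholipase-like serine hydrolase. Its 18 intron-type circles had 20 and 21 counts in the controls against 109 and 201 in the knockdowns. Per 100000 this was 4.00 ± 0.326 in the controls and 45.0 ± 9.13 in the knockdown (SD, n = 2). LYPLAL1 rose with a log2 fold change of 3.83 ± 0.48 (SE, adjusted p 0.0238 by edgeR), in 2 of 2 knockdown libraries. It did not pass with a filter of 5 counts in 2 libraries (adjusted p 0.0555) or with edgeR's newer dispersion method (0.176), and over the 14 alternatives the adjusted p ran from 6.74e-41 to 0.176. Its 4 circles with at least 10 counts joined 2 starts, at 219193082 and 219193130 of chromosome 1, to 2 ends, at 219241308 and 219218712. The circles from the first start had 6, 8, 70 and 115 counts at the farther end and 1, 5, 16 and 44 counts at the nearer. Those from the second start had 0, 3, 10 and 17 counts at the farther end and 2, 1, 5 and 8 at the nearer. All 4 were higher in both knockdowns than in both controls, as were 23.2% of all circles with at least 10 counts. These 4 circles hold most of the counts of the sum that passed, and they share starts and ends. Their order of groups is therefore not separate support for that sum. Exon-type circles of LYPLAL1 had 0 counts in both controls and 15 in each knockdown.

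The 3 lower sums with the smallest p-values did not pass. MAP3K20, a stress-activated kinase that senses stalled ribosomes, had 124 and 53 counts in the controls against 4 and 8 in the knockdowns (log2 fold change -2.91 ± 0.60, adjusted p 0.0992 by edgeR). One circle of it with 48 counts was in control replicate 1 alone. IFNGR1, a chain of the interferon gamma receptor, had 21 and 26 counts in the controls against 0 in both knockdowns (adjusted p 0.122 by edgeR). Its control mean was 4.98 times the mean knockdown floor of 3 counts per library, a ratio that leaves out counting error in the controls. A single circle gave 22 of the 26 counts in control replicate 2 and was in no other library. EFNA5, an ephrin ligand, had 182 and 204 counts in the controls against 22 and 31 in the knockdowns over 103 circles, of which 88 were seen in 1 library (log2 fold change -1.91 ± 0.43, adjusted p 0.122 by edgeR). Its level was 37.6 ± 1.32 per 100000 in the controls and 7.86 ± 0.111 in the knockdown (SD, n = 2), with no overlap. Exon-type circles of EFNA5 were also lower, with 29 and 11 counts in the controls against 0 and 2 in the knockdowns. Those of IFNGR1 were higher, with 7 and 3 against 11 and 11. Those of MAP3K20, with 60 and 2 against 8 and 6, overlapped between the groups.

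Among the most abundant sums, RAP2C-AS1 had 135 and 298 counts per 100000 in the controls against 558 and 597 in the knockdowns (adjusted p 0.384 by edgeR). CHD9 had 66.3, 90.2, 110 and 124, and KANSL1L 77.7, 59.5, 90.9 and 99.6, with the knockdowns above the controls in both. STK3, a kinase of the Hippo pathway, had 52.5 and 50.7 in the controls against 33.2 and 32.3 in the knockdowns, and CRIM1 84.5 and 73.3 against 39.3 and 53.5. TDRP had 127 and 102 against 77.5 and 65.5. The groups did not overlap in these 3 hosts either, and none passed the test (adjusted p 0.749 to 0.822 by edgeR). The share of all sums without overlap was not taken. Among all circles with at least 40 counts, 29.7% had both knockdowns above both controls and 28.9% had both below.

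Intron-type and exon-type circles of the same host were compared in 1 model (edgeR, 2 features a host) to ask whether they changed unequally. Of 2734 hosts tested over the table, 2733 of them with intron-type circles outside the mitochondrial genome, 0 passed an adjusted p of 0.05. At an unadjusted p under 0.05, the intron-type sum was higher relative to the exon-type sum in 34 hosts (1.24%) and lower in 277 (10.1%). The median log2 difference was -0.76 over the 2733 hosts. Leaving out control replicate 1 gave -0.10 and leaving out control replicate 2 gave -1.26, and 307 and 870 hosts (17.8% and 38% of those tested) passed without those libraries, against 0 without either knockdown.

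SENP6, a protease that removes SUMO chains, had the smallest p among lower hosts. Its intron-type circles had 55 and 40 counts in the controls against 8 and 7 in the knockdowns. Its exon-type circles had 144 and 854 counts in the controls against 3193 and 4970 in the knockdowns. The 2 kinds ran in opposite directions, with a log2 difference of -5.64 ± 0.96 (adjusted p 0.0966 by edgeR), and the exon-type level differed between the controls, at 30.5 and 153 per 100000. MID1, a microtubule-associated ubiquitin ligase, had 35 and 31 intron-type counts in the controls against 8 and 6 in the knockdowns, against 0, 1, 16 and 19 exon-type counts (adjusted p 0.128 by edgeR). DNAH14, an axonemal dynein heavy chain, had 29.4, 27.5, 24.8 and 28.4 intron-type counts per 100000 and 137, 238, 920 and 1118 exon-type counts per 100000. Its intron-type level overlapped between the groups, and the log2 difference was -2.50 ± 0.50 (adjusted p 0.141 by edgeR).

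The 3 higher hosts had 0 intron-type counts in both controls and passed the filter through the knockdowns alone. For them the knockdown mean is given over the mean control floor of 3 counts per library. This ratio leaves out counting error in the knockdowns. The inositol phosphatase gene INPP5F had 4 and 7 intron-type counts in the knockdowns, 2.73 times the floor. PROSER1 had 7 and 10, 4.29 times the floor, and SGCE, a sarcoglycan, had 8 and 4, 3.28 times the floor. Their exon-type counts are given per 100000, in the order control replicates 1 and 2, knockdown replicates 1 and 2. They were 4.87, 8.44, 0.354 and 1.02 for INPP5F and 5.93, 7.73, 4.60 and 3.07 for SGCE. For PROSER1 they were 1.69, 2.34, 0.707 and 1.79 and overlapped between the groups. None passed the test (adjusted p 0.18 to 0.25 by edgeR).

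**Figure D4:**
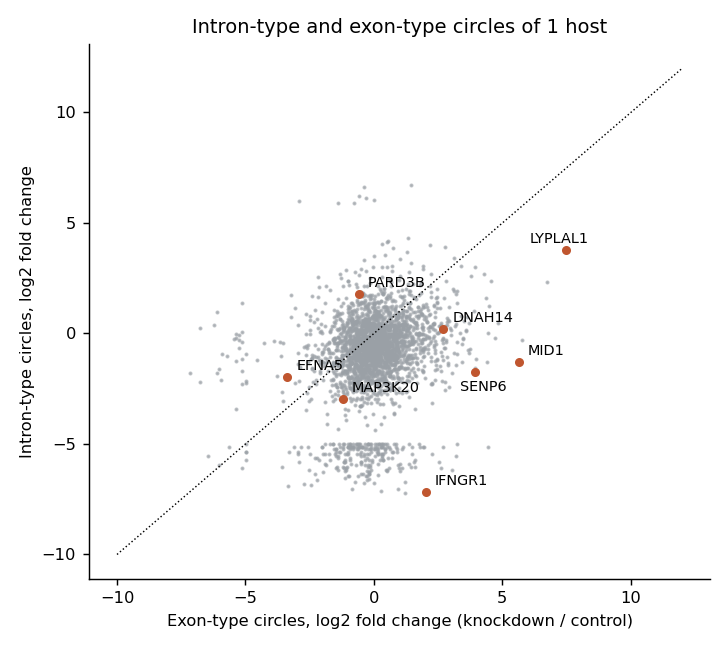
Log2 fold change (knockdown over control) of the intron-type sum (vertical axis) against that of the exon-type sum (horizontal axis), 1 point per host over 2733 hosts, with 8 hosts in orange that were labelled after their values were seen and equal change on the dotted line. Points near -5 and lower on the vertical axis are mostly the 244 hosts with 0 intron-type counts in both knockdowns, and their fitted values depend on the prior count; SENP6 and MID1 lie below the line with exon-type values above 0.

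Genes of the pathways were taken as lists. No list had a member that passed the test for its intron-type sum, against 0.119% of all sums. Of 5 genes known for intronic or exon-intron circles, 4 had intron-type counts and 1 was tested. This was EIF3J, a subunit of translation initiation factor 3, with 8 and 0 counts in the controls against 13 and 24 in the knockdowns (log2 fold change 3.11 ± 1.03, adjusted p 0.30 by edgeR). Its main circle (chr15:44560249-44563225, 1074 nt in 3 blocks) had 1, 0, 13 and 24 counts. PAIP2 had 5 counts and MCM5 had 3, all in control replicate 1.

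Of 25 very long or fragile-site genes, 14 had intron-type counts and 13 were tested, with 5 higher and 8 lower estimates and a median log2 fold change of -0.19. The median over all intron-type sums was -0.67. PARD3B had 8.68 and 11.5 counts per 100000 in the controls against 29.7 and 27.7 in the knockdowns, without overlap (log2 fold change 1.82 ± 0.45, adjusted p 0.159 by edgeR). FHIT, a gene at a common fragile site, had 13.97, 5.75, 9.55 and 7.68 counts per 100000 and overlapped, with 0 exon-type counts. EXOC4, a subunit of the exocyst tether, had 22.2, 6.65, 4.24 and 4.10.

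Of 32 hnRNP and splicing factor genes, 28 had intron-type counts and 21 were tested, with 9 higher and 12 lower estimates and a median of -0.14. HNRNPC, an abundant nuclear RNA-binding protein, had 66 and 20 counts in the controls against 5 and 6 in the knockdowns (log2 fold change -1.96 ± 0.71, adjusted p 0.332 by edgeR). Its exon-type circles had 187, 210, 28 and 43 counts. SRPK1, a kinase of SR proteins, had 11.9, 6.29, 6.72 and 6.15 counts per 100000 (log2 fold change -0.11 ± 0.47). MBNL1, a splicing regulator, had 6.77, 4.31, 5.66 and 6.40 (log2 fold change 0.50 ± 0.50). Both overlapped between the groups.

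Of 25 DNA damage response genes, 13 of the 23 with intron-type counts were tested, with 6 higher and 7 lower estimates and a median of -0.45. MSH3, a mismatch repair protein, had 8.04 and 5.21 counts per 100000 in the controls against 2.12 and 2.05 in the knockdowns. Its exon-type circles had 11.4 and 21.6 in the controls against 33.2 and 38.4 in the knockdowns. PRKDC, the catalytic subunit of DNA-dependent protein kinase, had 6.99, 2.52, 1.41 and 2.05 intron-type counts per 100000.

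Of 25 cell adhesion and migration genes, 13 of the 18 with intron-type counts were tested, with 2 higher and 11 lower estimates and a median of -0.59. PARD3, a polarity protein, had 85 and 78 counts in the controls against 9 and 23 in the knockdowns (log2 fold change -1.43 ± 0.48, adjusted p 0.305 by edgeR). PTK2, the focal adhesion kinase, had 23.3, 15.6, 12.7 and 9.47 counts per 100000. CD44, a hyaluronan receptor, had 22.0, 9.16, 9.55 and 9.99 and overlapped between the groups.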

How the data were processed

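Raw counts, as the authors deposited them, come with 1 entry per circular RNA, made with the caller CIRI-long per the file's columns; its version and the aligner are not given in the sources used here. GRCh38.p14 and DESeq2 come from the submitters' processing notes. A second deposited table holds the same counts scaled to 100000 per library and was not used. Counts per 100000 here are counts over the library total. 0 columns of other samples were present. Groups came from the sample titles. Members and gene lists were chosen with earlier results of these data known.

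Circles, sums by host and type (circles naming 1 gene), and intron-type against exon-type sums were tested with edgeR 4.0.16 (R 4.3.3) on the deposited counts. TMM scaling, at least 10 counts over the 4 libraries, the quasi-likelihood test (diffSpliceDGE for the third) and Benjamini-Hochberg adjustment over all features were used, with a threshold of 0.05. Standard errors are the log2 fold change over the root of F. Alternatives were other scaling, filters, DESeq2 1.42.0, a replicate block and leaving out each library. The scripts were tested on simulated data. Named were the 10 most abundant circles and hosts, up to 5 per direction that passed or otherwise the 3 with the smallest p, and the 3 most abundant of each list, of which 1 is not reported here; shared ends, junction repeats, microRNAs and single circles of named hosts were added after values were seen. Other hosts named for many circles were chosen likewise. Same-numbered libraries deviated together with a correlation of 0.071 over all circles and 0.128 over intron-type circles with at least 40 counts, and no label ties them.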

Additional observations from a re-analysis of the deposited data

How the results depend on the processing

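The number of intron-type circles passing an adjusted p of 0.05 was 0 by edgeR with library-size scaling, with DESeq2's size factors, with the newer dispersion method and without mitochondrial circles, as in the report. Without a filter 33 passed, with a filter of 5 counts in 2 libraries 103 and with one of 40 counts 24, while DESeq2 gave 67. These were 0.0627%, 12.1%, 8.51% and 2.42% of the intron-type circles tested, against 0.248%, 12%, 12.5% and 4.88% of all circles. The number ran from 0 to 1233 when each library was left out. For summed hosts (1 in the report) the same filters gave 49, 0 and 3, the newer dispersion method gave 0 and DESeq2 gave 8 (0.566%, 0%, 0.271%, 0% and 0.211%, against 1.35%, 0%, 2.04%, 0% and 1.47% of all sums), with a range from 1 to 1044 leaving out each library. For intron-type against exon-type circles (0 in the report) it was 5, 4 and 8 with those 3 filters and from 0 to 870 leaving out each library. A lone library left in a group is assumed to vary like the other group, and the cause of these moves was not tested.

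With the replicate number as a replicate block, 189 circles, 40 summed hosts and 35 hosts of the third comparison passed. These were 6.84%, 1.06% and 1.28% of those tested, against 7.66% of all circles and 2.76% of all sums, and the third test holds 1 other host for comparison. The numbers share no label beyond the number. Within same-numbered pairs, knockdown minus control was -9.73 and -0.595 percentage points for the share of counts, -11355 and 965 for circles at equal depth, -21 and 151 nt for median length, 7.88 and -2.68 points for AG-GT, -8963 and 356 per 100000 for circles of 1 block and -770 and -951 for circles of more.

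Leaving out each library, the difference in circles at equal depth ranged from -11170 to 780, in median length from -63 to 193 nt, in AG-GT from -2.46 to 7.66 points and in circles of 1 block from -8897 to 289 per 100000.

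Of single values on the log2 scale, 17 changed sign under an alternative (sums and circles as fold changes, differences as intron-type against exon-type circles of a host), none past the threshold. Leaving out each library gave -0.078 to 1.04 for the circle of KANSL1L, -0.60 to 0.25 for the circle of ANKRD11, -0.78 to 0.46 for the circle of NUP205, -0.40 to 0.0016 for the sum of STK3, -0.033 to 0.79 for the sum of FHIT, -0.21 to 0.25 for the sum of SRPK1, -0.48 to 0.32 for the sum of CD44, -0.27 to 0.070 for the difference of CHD9, -0.029 to 0.25 for the difference of CRIM1, -3.67 to 4.43 for the difference of EIF3J, -1.76 to 0.16 for the difference of EXOC4, -0.59 to 0.16 for the difference of SRPK1, -1.17 to 0.72 for the difference of HNRNPC, -1.41 to 0.024 for the difference of PRKDC and -0.76 to 0.27 for the difference of PTK2. With library-size scaling, the sums of DNAH14 (-0.15), NUP205 (-0.21) and FHIT (-0.26) changed sign.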
